A study of Mus musculus with 4 samples.

Results

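Oligodendrocyte precursor-like (OPC-like) cells were 116 of the 6509 cells in 4 mouse medulloblastomas measured by single-cell RNA sequencing, or 1.78%. They were chosen by transcripts alone. A cell entered with at least 4 of the 6 genes Cspg5, Olig1, Matn4, Pllp, Scrg1 and Ptprz1 detected, a mean deposited value of Cspg5, Olig1, Matn4 and Pllp at or above that of the astrocyte genes Aqp4, Clu, Igfbp2 and Timp4, and no transcript of Ptprc, the pan-leukocyte gene. All 4 tumours belonged to the Sonic hedgehog subgroup (SHH MB), came from Ptch1+/- mice that had been irradiated at birth, were taken at end point and had no treatment. Tumours are numbered 1 to 4, and nothing in the labels states that each is from a different animal, so p-values measure the spread between these samples. The labels give that genotype for the mice and not for single cells, and no sample without that allele or without irradiation was analysed here. Cells had been frozen, thawed and sorted as live cells before loading on the 10x Genomics platform, so a share of cells is a share of what passed those steps. The median share of mitochondrial transcripts was 3.78%, 3.41%, 4.0% and 5.51% in OPC-like cells of tumours 1 to 4, against 3.65%, 3.05%, 3.59% and 2.3% over all cells of each tumour, with the widest gap in tumour 4. Its part in the results was not tested.

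Oligodendrocyte precursors are the dividing glial progenitors of the postnatal brain. They respond to platelet-derived growth factor through its receptor Pdgfra, carry the NG2 proteoglycan Cspg4, and depend on the transcription factors Olig2 and Sox10. On commitment they pass through a stage marked by Gpr17 and then switch on the genes of myelin, such as Cnp, Mbp and Mog. In the cerebellum they share tissue with granule neuron progenitors, the cells from which SHH medulloblastoma arises.

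The rule found 13 of 798 cells in tumour 1, 16 of 2589 in tumour 2, 47 of 1229 in tumour 3 and 40 of 1893 in tumour 4. The shares were 1.63% (exact Clopper-Pearson 95% interval 0.87 to 2.77), 0.618% (0.354 to 1.0), 3.82% (2.82 to 5.05) and 2.11% (1.51 to 2.87), and these intervals cover counting error only. Tumour 2 had the lowest share and tumour 3 the highest, and the intervals of those 2 tumours did not meet. All 6 rule genes were detected in 70 cells, 5 in 23 and 4 in 23. Just outside, 42 cells passed everything else with 3 of the 6 genes, 14 had the genes but a higher astrocyte mean, and 26 had the genes together with Ptprc, 8 of them in tumour 1 and 18 in tumour 4. The smallest lead of the precursor mean over the astrocyte mean among the cells kept was 0.0609, and the cell nearest outside stood at -0.0459, both in deposited log2 units.

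CPM values below are a gene's molecule counts (UMIs) summed over a group of cells as a share of the group's total, on the usual CPM scale. Cells just inside the rule, with 4 of its genes, were 5, 1, 11 and 6 in tumours 1 to 4, and a list of 24 other precursor genes summed to 456, 187, 1220.2 and 654 CPM in them. Cells just outside, with 3 rule genes, were 18, 3, 8 and 13 and had 466, 852, 686 and 766 CPM, so the cells just inside were higher in tumour 3 and lower in the others. Cells with 5 rule genes had 972, 7107, 3376 and 1884 CPM and those with all 6 had 685, 7884, 4576 and 2998 CPM, above both edges in each tumour. The genes of the rule are given as a description only, since they chose the cells. Cspg5, a transmembrane proteoglycan, was at 58.6, 2291, 897 and 849.6 CPM in the OPC-like cells of tumours 1 to 4. Olig1, a basic helix-loop-helix factor of the lineage, was at 242, 2508, 915 and 848 CPM. Matn4, a matrilin of the extracellular matrix, was at 14.3, 632, 422 and 214 CPM. Pllp, a membrane protein of myelinating cells, was at 27.5, 553, 315 and 156 CPM. Tumour 1 was the lowest for each of these genes, and also for Scrg1 (9.56, 563, 205 and 191 CPM) and Ptprz1, a receptor tyrosine phosphatase (31.1, 454, 251 and 279.5 CPM).

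The cells that met the rule in tumour 1 differed from those of the other tumours before any comparison was made. Their median was 69295 UMIs, against 15283.5 over all cells of that tumour, while the OPC-like cells of tumours 2, 3 and 4 had medians of 5523, 8906 and 13266.5. The rule counts detected genes, so depth bears on who passes it. With every cell thinned to 4900 UMIs, and shallower cells left out, 1 of 798 cells of tumour 1 met the rule (0.125%, 0.00317 to 0.696), against 11 of 2206 (0.499%), 30 of 913 (3.29%) and 32 of 1333 (2.4%) in tumours 2 to 4. The 24 precursor identity genes, none of them used by the rule, summed to 678, 6448, 3524 and 2424 CPM in the OPC-like cells of tumours 1 to 4. The same list summed to 396, 319, 492 and 426 CPM in granule lineage-like cells and to 377, 108, 137 and 231 CPM in cells with Ptprc. All 13 cells of tumour 1 also had at least 3 of the 6 granule lineage genes Atoh1, Barhl1, Zic1, Zic2, Neurod1 and Pax6. This list shares no gene with the rule but was chosen with earlier results of these data known, so its sums are a description. They stood above those of the other classes in tumours 2 to 4. In tumour 1 the sum went against the label, at less than the 737 CPM of that tumour's astrocyte-like cells. Results are given for tumours 2 to 4 first and for all 4 tumours beside them, an order chosen after these values were seen.

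**Figure D1:**
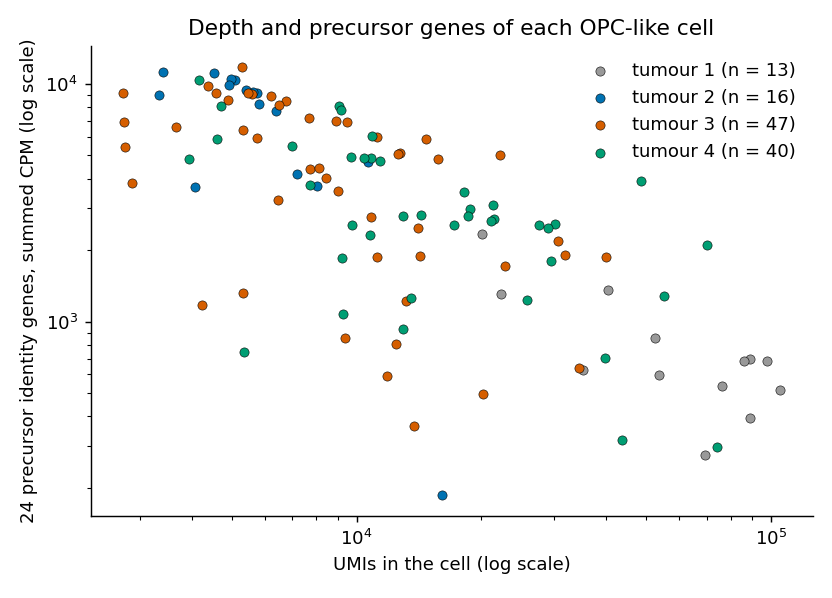
Each point is 1 OPC-like cell, coloured by tumour, with its UMIs on the horizontal axis and the summed CPM of 24 precursor identity genes on the vertical axis, both on log scales. The 13 cells of tumour 1 lie at 20052 UMIs or more and reach at most 2344 CPM, and the highest cells of tumours 2 to 4 reach 11173, 11742 and 10352 CPM.

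**Figure D2:**
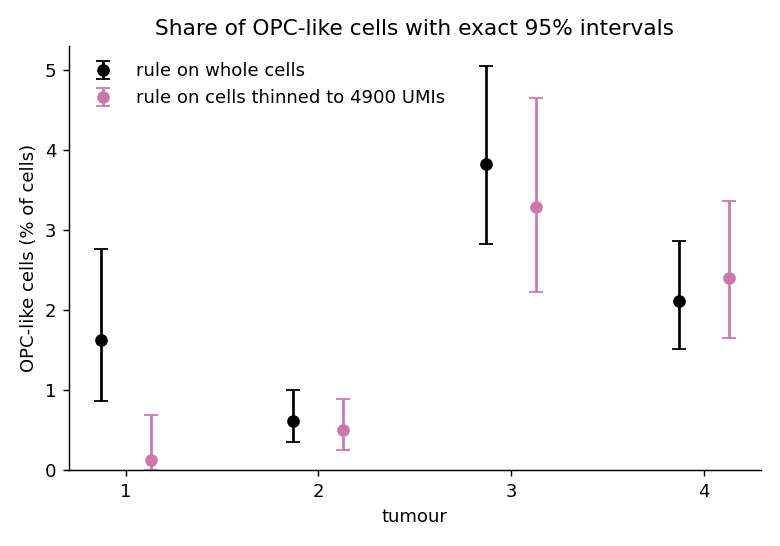
OPC-like cells as a percentage of cells in each tumour, with exact 95% intervals, by the rule on whole cells (black) and on cells thinned to 4900 UMIs (pink). The value of tumour 1 goes from 1.63% to 0.125%, and those of tumours 2 to 4 stay within their whole-cell intervals.

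Total UMIs per tumour ran from 10458431 to 23439893. Among all cells, 17 barcodes occurred in more than 1 library, and 1 of them was an OPC-like cell's. Scrublet called 21 of the 6509 cells as doublets (0.323%), too few to count as a working call, and none of them was OPC-like. Of the 100 cells with the highest doublet scores, 1 was OPC-like. Markers of astrocytes lay above the granule lineage-like level in tumours 2 to 4. The 4 astrocyte genes of the rule summed to 94.5, 1136, 309 and 240.1 CPM in OPC-like cells of tumours 1 to 4, 448, 1184, 964 and 1059 in astrocyte-like cells and 94.9, 21.5, 37.7 and 29.1 in granule lineage-like cells, so tumour 2 came close to its astrocyte-like cells. The list of 20 other astrocyte genes summed to 1340.3, 5184, 2347 and 3205 CPM in OPC-like, 3224, 8002, 6087 and 12710.4 in astrocyte-like and 1002, 525, 817 and 1608 in granule lineage-like cells. Immune markers were highest in tumours 1 and 4. The 9 microglia and macrophage genes summed to 152, 19.7, 7.53 and 532 CPM in tumours 1 to 4, against 78.1, 12.7, 7.66 and 237 in granule lineage-like cells and 3439, 15721, 19792 and 11295 in cells with Ptprc, and 4 of 5 endothelial genes had no UMI at all. Tyrobp and Fcer1g are among the 9, and granule lineage-like cells were chosen to lack both, so their sum is partly set by the choice. In OPC-like cells these 2 genes held 59.8, 19.7, 0 and 291 CPM of the sums. The 4 neutrophil genes summed to 105, 19.7, 0 and 611 CPM, against 90.5, 8.55, 4.64 and 615 CPM in granule lineage-like cells. Their part in the results below was not tested.

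The first comparison asked which genes set OPC-like cells apart from granule lineage-like cells of the same tumours. The latter had at least 3 of the 6 granule genes and no Ptprc, Tyrobp or Fcer1g, and were 212, 2123, 1035 and 28 cells in tumours 1 to 4. UMIs were summed per tumour and class, and limma was fitted to log2(CPM + 10) with tumour as a block. A difference below is on that scale, which understates the change of low genes, and genes of the rule and gates were left out. Without tumour 1, 558 of 6372 genes passed an adjusted p of 0.05 (8.76%), 432 higher in OPC-like cells (6.78%) and 126 lower (1.98%), and the median difference over all genes was 0.01. With all 4 tumours, limma called 0 of 6261 genes (0%), with 1199 at an unadjusted p under 0.05. The split depended on the scale. By the mean of the deposited log2 values, tumours 2 to 4 had 427 genes called higher and 579 lower, and against a granule class that lacked only Ptprc (348 cells in tumour 4) they had 347 higher and 29 lower. Many genes of the precursor lists passed the filter of 20 CPM only through the OPC-like cells, so list counts are descriptions and are given over whole lists. The p-values of such genes, among them Cspg4, Neu4, Sox10 and Gpr17, are descriptions too, here and against astrocyte-like cells below. With all 4 tumours no gene of any list passed in the fit of log2(CPM + 10) described above. Over all genes of the 4 tumours, 333 passed by the mean of the deposited log2 values, 132 with thinned cells and 52 with no filter.

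Precursor identity genes were higher in OPC-like cells of tumours 2 to 4 almost throughout. The sum of these same genes was seen before tumour 1 was placed second, so their p-values in tumours 2 to 4 are descriptions. The same holds for the comparison with astrocyte-like cells below. Of the 24 genes listed, 20 could be tested, and 19 were higher and none lower, with a median difference of 2.99. With all 4 tumours the median was 2.32 over 19 genes. Pdgfra (chromosome 5, 75152292 to 75198215, GRCm38), the receptor of the precursor mitogen, was at 77.7, 454, 394 and 261 CPM in OPC-like cells of tumours 1 to 4 and at 49.4, 49.9, 86.3 and 38.7 CPM in granule lineage-like cells. The classes did not overlap in tumours 2 to 4, and the OPC-like cells of tumour 1 fell within the granule range. The difference was 2.50 ± 0.22 (SE, 3 tumours, limma adjusted p = 0.000211), and 2.01 with all 4 tumours (limma adjusted p = 0.0948). Cspg4, the NG2 proteoglycan, was at 12, 79, 82.9 and 102 CPM against 1.48, 1.29, 1.51 and 0 CPM. Its levels in tumours 2 to 4 lay close together (3.16 ± 0.31, limma adjusted p = 0.000344).

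Serpine2 (chromosome 1, 79794197 to 79861180), a secreted inhibitor of serine proteases, had the largest difference of the genes named here. It was at 40.7, 1975, 746 and 484 CPM in OPC-like cells and at 8.87, 7.57, 23.7 and 9.68 CPM in granule lineage-like cells. Every tumour was higher in OPC-like cells, and the difference was 5.32 ± 0.42 in tumours 2 to 4 (limma adjusted p = 0.000354). Neu4, a sialidase, was at 2.39, 148, 104 and 44.3 CPM against 0, 0.103, 0.58 and 0 CPM. Bcan, the matrix proteoglycan brevican, was at 62.2, 681, 281 and 220.4 CPM against 34.3, 14.7, 18.9 and 53.3 CPM. Both were higher in tumours 2 to 4, by 3.28 ± 0.37 and 3.33 ± 0.47 (limma adjusted p = 0.000552 and 0.00455). C1ql1, a secreted C1q-like protein and the tested gene that did not pass, was at 249, 523, 426 and 249 CPM against 175, 172, 256 and 228 CPM (0.80 ± 0.25, limma adjusted p = 0.0939). In cells with Ptprc it was at 149, 41.5, 68.5 and 45.1 CPM.

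**Figure D3:**
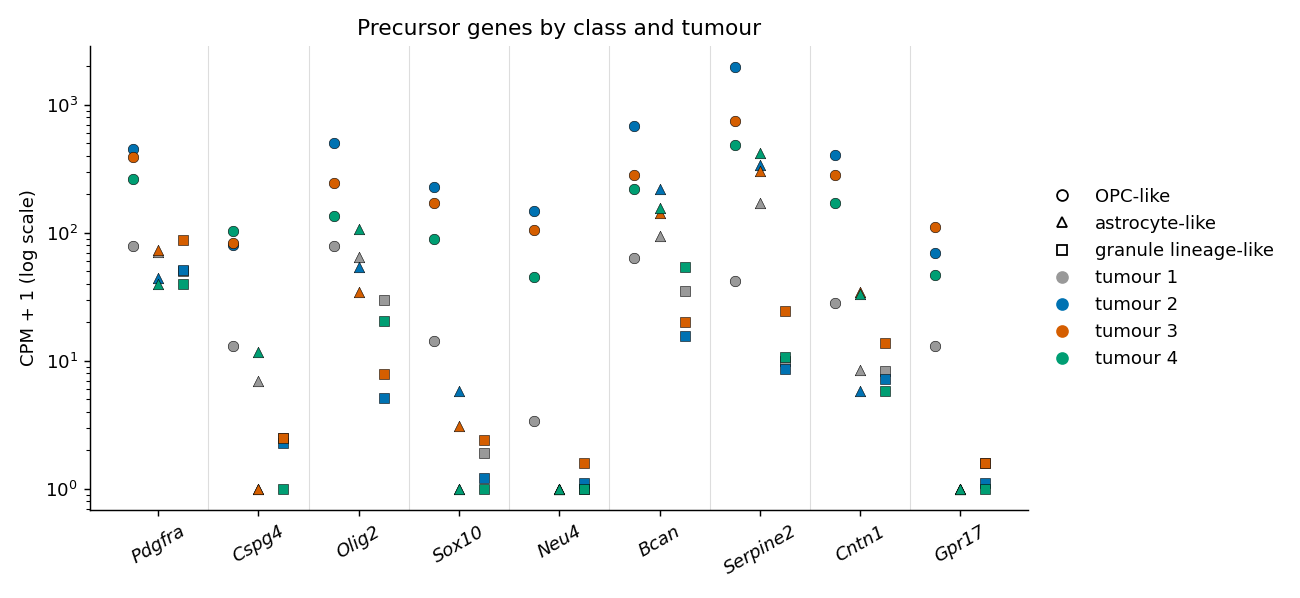
Level of 9 genes outside the rule (CPM + 1, log scale) in OPC-like (circles), astrocyte-like (triangles) and granule lineage-like cells (squares), 1 point per tumour, coloured by tumour. The OPC-like points of Sox10 in tumours 2 to 4 lie at 88.7 to 227 CPM and those of the other classes at 4.85 CPM or less, and tumour 1 is the lowest OPC-like point for every gene shown.

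Transcription factors of the lineage were higher in part. Of 22 listed, 15 could be tested in tumours 2 to 4, and 8 were higher, among them Olig2, Sox10, Nkx2-2, Sox8, Sox6, Prrx1 and Hes5, and 1 was lower (Nfia, a nuclear factor I gene). Against the granule class that lacked only Ptprc, 7 were higher and 0 lower. Sox10 (chromosome 15, 79154908 to 79165240), the factor that drives myelin genes, was at 13.2, 227, 171 and 88.7 CPM in OPC-like cells and at 0.887, 0.206, 1.39 and 0 CPM in granule lineage-like cells. In cells with Ptprc, which should lack it, Sox10 was at 3.19, 0, 0 and 3.93 CPM. Its difference was 3.94 ± 0.32 in tumours 2 to 4 (limma adjusted p = 0.000168) and 3.23 with all 4 (limma adjusted p = 0.0948). Olig2 (chromosome 16, 91225457 to 91228677), which specifies the lineage, was at 77.7, 504, 245 and 134 CPM against 29, 4.12, 6.85 and 19.4 CPM. OPC-like cells were higher in each tumour, by 3.80 ± 0.47 in tumours 2 to 4 (limma adjusted p = 0.00244). Over the 22 settings fitted with at least 3 tumours, the adjusted p of limma ranged from 2.09e-06 to 0.352 for Pdgfra, from 1.25e-05 to 0.352 for Sox10 and from 1.71e-06 to 0.389 for Olig2.

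Genes of committed precursors were found in these cells, and several of mature myelin were not. Of the 12 committed precursor genes, 6 could be tested in tumours 2 to 4 and 5 were higher (Gpr17, Itpr2, Fyn, Sirt2 and Nfasc), with a median of 1.97. Gpr17, a receptor of precursors that leave the cycle, was at 12, 69.1, 109 and 45.6 CPM against 0.591, 0.103, 0.58 and 0 CPM in granule lineage-like cells. It had a UMI in 5 of 13, 4 of 16, 22 of 47 and 21 of 40 OPC-like cells. The difference was 2.98 ± 0.36 in tumours 2 to 4 (limma adjusted p = 0.00081). Sirt2, a deacetylase found in myelinating cells, was at 61, 425, 507 and 179.8 CPM against 62.1, 62.5, 63.8 and 87.2 CPM (2.12 ± 0.34, limma adjusted p = 0.00799). Enpp6 and Myrf, which act as precursors start to myelinate, had no UMI in any OPC-like cell.

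Of 16 myelin genes, 5 could be tested in tumours 2 to 4, and 4 were higher, among them Cnp, Ugt8a and Gjc3. Cnp, an enzyme made ahead of compact myelin, was at 39.5, 158, 542 and 78.8 CPM against 16.6, 4.74, 11.4 and 14.5 CPM (3.35 ± 0.47, limma adjusted p = 0.00445). In tumour 3 it had a UMI in 31 of 47 cells, and 3 of these held 225 of its 288 UMIs (78.1%). In tumour 4 it had a UMI in 30 of 40 cells, and the 3 highest held 12 of 64 UMIs, so the gene was spread more evenly there. Mog, Mal and Opalin, genes of mature oligodendrocytes, had no UMI in any of the 116 cells, a count that allows up to 3 UMIs.

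Growth factor genes included receptors and the genes their signal induces. Of 31 listed, 14 could be tested in tumours 2 to 4, and 7 were higher (Pdgfra, Ntrk2, Spry1, Spry2, Etv1, Etv4 and Etv5) and none lower. Ntrk2, the receptor TrkB for brain-derived neurotrophic factor, was at 23.9, 355, 105 and 102 CPM in OPC-like cells against 18, 17.2, 17.5 and 43.6 CPM in granule lineage-like cells. Tumours 2 to 4 were all higher (2.29 ± 0.45, limma adjusted p = 0.018). Spry1, a feedback inhibitor of receptor tyrosine kinases, was at 4.78, 88.9, 39.6 and 44.3 CPM against 3.25, 3.19, 3.48 and 4.84 CPM (2.22 ± 0.36, limma adjusted p = 0.00439). Etv4, an ETS factor induced by the MAP kinase pathway, was at 10.8, 178, 49 and 54.2 CPM against 1.48, 1.34, 3.6 and 4.84 CPM (2.76 ± 0.41, limma adjusted p = 0.00301).

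Among 26 proteoglycan and matrix genes, 19 were tested in tumours 2 to 4, and 12 were higher and none lower. Besides Cspg4 and Bcan these were Vcan, Ncan, Chst11, Ptn, Sdc3, Gpc5, Sparcl1, Timp3, Sulf2 and Cntn1. Cntn1 (chromosome 15, 92051165 to 92341967), the adhesion molecule contactin 1, was at 27.5, 405, 284 and 169.9 CPM against 7.39, 6.18, 12.6 and 4.84 CPM (3.99 ± 0.27, limma adjusted p = 0.000168). Sulf2, which removes sulfate groups from heparan sulfate, was at 5.98, 286, 158 and 140.4 CPM against 3.25, 3.19, 3.36 and 9.68 CPM (3.69 ± 0.32, limma adjusted p = 0.000211). In tumour 1 both genes were below their level in any other tumour's OPC-like cells.

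Channels and transmitter receptors were higher for 8 of 28 genes listed, 11 of them tested in tumours 2 to 4, with none lower. They were the AMPA receptor subunits Gria2, Gria3 and Gria4, the NMDA receptor subunit Grin3a, the metabotropic receptor Grm5, the AMPA receptor auxiliary subunit Cacng4, and Kcnd2 and Kcnip3, which form or bind A-type potassium channels. Cacng4 was at 20.3, 385, 156 and 176 CPM against 2.07, 4.33, 5.57 and 14.5 CPM (3.71 ± 0.35, limma adjusted p = 0.000345). Kcnip3 was at 49, 583, 194 and 156 CPM against 50.6, 44.2, 58.9 and 19.4 CPM. Its OPC-like level was below the granule level in tumour 1 and above it in the other tumours (2.51 ± 0.33, limma adjusted p = 0.00207). Grm5 was at 3.59, 98.7, 64 and 38.2 CPM against 2.66, 0.618, 0.812 and 4.84 CPM (2.61 ± 0.39, limma adjusted p = 0.00288).

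Among genes outside the lists, the largest differences in tumours 2 to 4 were those of Meg3, Gpr37l1, S100a1, Tmem176a, Pcsk1n, Phlda1, Ly6h, Ramp1, Tmem100, Rlbp1 and Rgcc. Meg3 (chromosome 12, 109541001 to 109571726), an imprinted long noncoding RNA, was at 39.5, 1215, 424 and 231 CPM in OPC-like cells against 24.2, 5.61, 4.18 and 4.84 CPM (5.08 ± 0.38, limma adjusted p = 0.000262). Gpr37l1, a receptor of glial cells, was higher by 4.70 ± 0.37, and S100a1, a calcium-binding protein, by 4.67 ± 0.44 (limma adjusted p = 0.000266 and 0.000671). The others differed by 3.85 (Rgcc, a cell cycle regulator) to 4.64 (Tmem176a, a membrane protein).

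**Figure D4:**
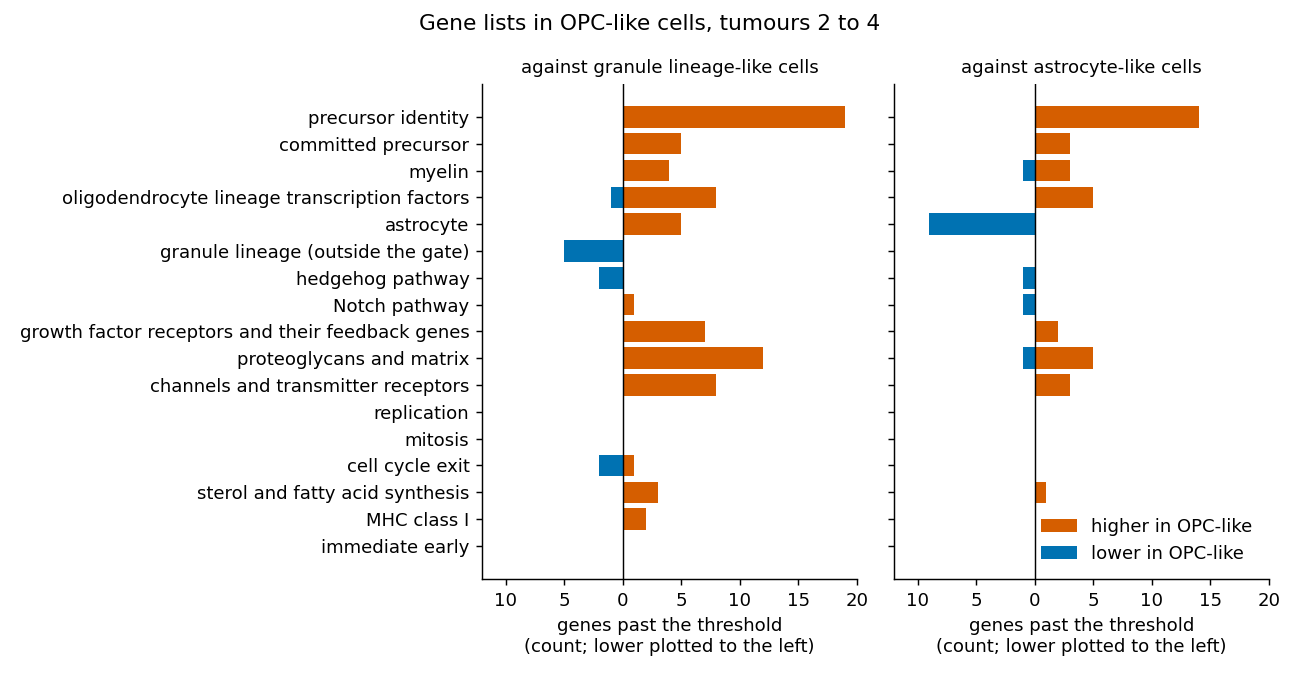
Number of genes of each list that passed the threshold in tumours 2 to 4, higher in OPC-like cells to the right and lower to the left, against granule lineage-like cells (left panel) and astrocyte-like cells (right panel). Precursor identity has 19 higher genes in the left panel and 14 in the right, and the astrocyte list has 5 higher in the left and 9 lower in the right.

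Genes of the granule lineage and of the hedgehog response were lower in part. The granule lineage-like cells were chosen for granule genes, so lower levels of that lineage in OPC-like cells are partly set by the choice. Of 18 granule genes outside the gate, 15 could be tested in tumours 2 to 4, and 5 were lower (Zic4, Zic5, Nhlh1, Tubb3 and Stmn2) and none higher. Tubb3 (chromosome 8, 123411424 to 123422015), a neuronal tubulin, was at 326, 346, 542 and 331 CPM in OPC-like cells and at 433, 1448, 1057 and 610.1 CPM in granule lineage-like cells. Every tumour was lower (-1.28 ± 0.22, limma adjusted p = 0.00997). Stmn2, a regulator of microtubules in growing neurons, was at 277, 237, 401 and 456 CPM against 250.1, 881, 661 and 717 CPM (-1.07 ± 0.23, limma adjusted p = 0.0236). Against the granule class that lacked only Ptprc, 2 genes of this list were lower, and the limma adjusted p of Stmn2 was 0.0632. By the mean of the deposited log2 values 10 of the 15 were lower.

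Of 15 hedgehog pathway genes, 10 could be tested in tumours 2 to 4, and 2 were lower (Mycn and Sfrp1) and none higher. Sfrp1 (chromosome 8, 23411502 to 23449632), a secreted antagonist of Wnt ligands, was at 648, 346, 885 and 383 CPM against 915, 1005, 1603 and 717 CPM, lower in each of the 4 tumours (-1.08 ± 0.15, limma adjusted p = 0.00181). Mycn (chromosome 12, 12936093 to 12941914), which keeps granule progenitors dividing, was at 194, 69.1, 347 and 113 CPM against 297, 404, 545 and 228 CPM (-1.32 ± 0.31, limma adjusted p = 0.0395). Against the granule class that lacked only Ptprc its limma adjusted p was 0.126. Gli1, the factor that the pathway induces, was at 55, 29.6, 43.3 and 28.3 CPM against 43.5, 58.3, 61.7 and 48.4 CPM and did not pass (-0.61 ± 0.25, limma adjusted p = 0.182). By the mean of the deposited log2 values 5 of the 10 hedgehog genes were lower, Gli1 among them (limma adjusted p = 0.0415). Ccnd1, the cyclin that the pathway raises in granule progenitors, was at 298, 770.2, 625 and 587 CPM against 307, 501, 512 and 412 CPM (0.47 ± 0.13, limma adjusted p = 0.0574). Other lower genes were Elavl2, an RNA-binding protein of neurons (-1.82 ± 0.43), Reln, the secreted guide of neuron migration (-1.50 ± 0.40), Sstr2, a somatostatin receptor (-1.50 ± 0.33), Igf2, an imprinted growth factor (-1.22 ± 0.31), and Serpinh1, a collagen chaperone (-1.19 ± 0.24), with limma adjusted p from 0.0129 to 0.0491. None of these 5 passed against the granule class that lacked only Ptprc, where limma adjusted p ran from 0.0697 to 0.116. Their differences there were -1.66 ± 0.48, -1.45 ± 0.42, -1.37 ± 0.38, -1.04 ± 0.31 and -1.04 ± 0.25, in the same order.

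No gene of replication or mitosis passed. Of 22 replication and 24 mitosis genes tested in tumours 2 to 4, the median differences were -0.38 and -0.31 against 0.01 over all genes. By the mean of the deposited log2 values 5 replication genes were lower. Top2a, the topoisomerase of dividing cells, was at 221, 88.9, 345 and 159 CPM in OPC-like cells against 220.3, 309.5, 318 and 92 CPM, lower in tumour 2 and higher in the others (-0.28 ± 0.40, limma adjusted p = 0.727). Rrm2, a ribonucleotide reductase subunit needed for replication, was at 81.3, 88.9, 199.7 and 73.9 CPM against 200.2, 264, 263 and 82.3 CPM (-0.66 ± 0.26, limma adjusted p = 0.169). Of 15 cell cycle exit genes, 12 were tested, and Cdkn2a was higher while Btg1 and Btg2 were lower. None of the exit genes passed with cells thinned to 4900 UMIs, with OPC-like cells that also met the rule at that depth, or against the granule class that lacked only Ptprc. By the mean of the deposited log2 values Cdkn1b, Btg1 and Btg2 were lower. With OPC-like cells limited to those with fewer than 3 granule gate genes, Cdkn2a was again higher and Btg1 and Btg2 lower.

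Smaller groups differed by few genes. Tumours 2 to 4 had 3 of 20 sterol and fatty acid genes higher (Hmgcs1, Insig1 and Scd2), with 16 tested. Hmgcs1, an early enzyme of cholesterol synthesis, was at 29.9, 207, 226 and 186 CPM against 46.1, 55.9, 125 and 111 CPM (1.07 ± 0.24, limma adjusted p = 0.02), and tumour 1 lay on the other side. Of 14 Notch pathway genes, 1 of 6 tested was higher, the target Hes5, at 9.56, 69.1, 71.6 and 41.9 CPM against 0.591, 1.75, 3.02 and 9.68 CPM (2.27 ± 0.37, limma adjusted p = 0.00429). The antigen presentation genes H2-D1 and B2m were higher, 2 of 10 listed and 3 tested. H2-D1 has near-identical copies, so its counts are uncertain. It was at 75.3, 918, 185 and 117 CPM against 90.2, 69.4, 69.2 and 62.9 CPM, while cells with Ptprc had 757, 3194, 3062 and 1320.2 CPM. Its difference passed in tumours 2 to 4 (1.88 ± 0.46, limma adjusted p = 0.0463) but not against the granule class that lacked only Ptprc (limma adjusted p = 0.0965), and the part of immune transcripts in it was not tested. None of 10 immediate early genes tested passed.

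OPC-like cells differed among themselves in granule genes. In tumours 1 to 4, 0, 12, 15 and 11 cells had fewer than 3 of the 6 granule gate genes, and 13, 4, 32 and 29 had 3 or more. Cells with 3 or more were deeper, at medians of 9353.5, 11527.5 and 18614 UMIs in tumours 2 to 4 against 5033, 4893 and 9698. Among cells with Ptprc, which should lack granule genes, 48.5%, 17.9%, 33.3% and 11.9% had 3 or more in tumours 1 to 4. Thinned to 4900 UMIs, the shares with 3 or more were 76.9%, 25%, 76.3% and 55.6% of OPC-like cells and 37.9%, 21.3%, 28.6% and 9.64% of cells with Ptprc. These are shares of 13, 12, 38 and 36 OPC-like cells and of 132, 75, 7 and 788 cells with Ptprc. The OPC-like share was the higher of the 2 in every tumour, though in tumour 3 it was set against only 7 cells. In tumour 2 the shares lay close together. The parts of doublets, free RNA and transcripts of the cells' own in this were not tested.

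The 38 cells with few granule genes had the higher precursor levels. Since the cells were split by what they held, these values are a description. The 38 cells were also shallower by median, and the rule counts detected genes, so depth bears on which cells entered each side. Its part in these levels was not tested. Pdgfra was at 625, 736 and 514 CPM in the 38 cells in tumours 2 to 4 and at 197, 335 and 226 CPM in the 65 cells with more granule genes. Olig2 was at 724, 516 and 463 CPM against 173, 198 and 88.4 CPM, and Cspg4 at 132, 168 and 181 CPM against 0, 68.4 and 91.2 CPM. The 24 identity genes summed to 8509, 7422 and 5006 CPM against 3357, 2858 and 2065 CPM, and the latter were still above the 319, 492 and 426 CPM of granule lineage-like cells. Sfrp1 went the other way, at 98.8, 51.6 and 121 CPM against 716, 1028 and 419 CPM, as did Mycn, at 0, 51.6 and 20.1 CPM against 173, 397 and 126 CPM. Gli1 was at 16.5, 0 and 10.1 CPM in the cells with few granule genes, where cells with Ptprc had 22, 29.4 and 8.95 CPM. The Gli1 values of the cells with few granule genes rest on very few UMIs.

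**Figure D5:**
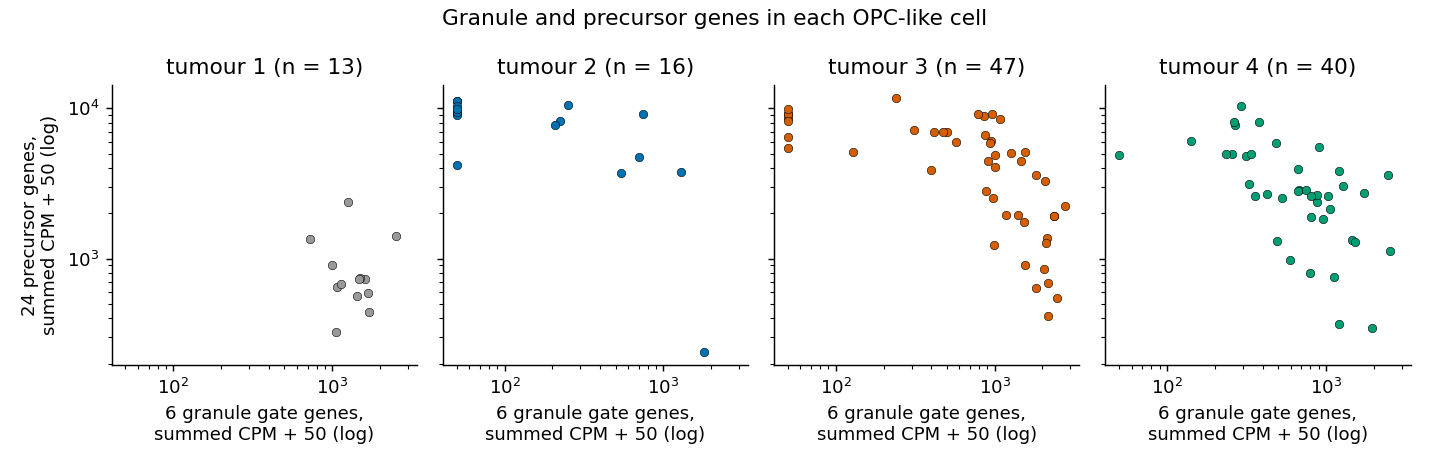
Each point is 1 OPC-like cell, with the summed CPM + 50 of the 6 granule gate genes (horizontal, log scale) against that of 24 precursor identity genes (vertical, log scale), 1 panel per tumour. The summed granule level of the 38 cells with fewer than 3 granule genes in tumours 2 to 4 is 82.3, 181 and 252 CPM, against 1209, 1619 and 1086 CPM in the cells with 3 or more, and that of the tumour 1 cells stands at 1400.0 CPM.

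Detection of mitosis genes followed the same split. At least 5 of the 24 mitosis genes were detected in 9 of 38 cells with few granule genes and in 51 of 65 cells with more, in tumours 2 to 4. At 4900 UMIs the counts were 3 of 22 and 34 of 64. Among OPC-like cells as a whole the thinned shares were 69.2%, 8.33%, 52.6% and 44.4% in tumours 1 to 4, and among granule lineage-like cells 51.9%, 46.6%, 57.8% and 25%. Cells with Ptprc reached that number in 38.6%, 20%, 28.6% and 9.9% at the same depth, of 132, 75, 7 and 788 cells. Whether the cells of any class that held these genes were dividing was not tested.

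With OPC-like cells limited to the 38 with few granule genes, limma called 1356 of 6574 genes against granule lineage-like cells (20.6%), 854 higher (13%) and 502 lower (7.64%). These included 535 of the 558 genes called with all OPC-like cells of tumours 2 to 4 (95.9% of the 558 and 39.5% of the 1356), each in the same direction. The split removed cells with granule genes, so lower granule genes follow from it in part. Its part in the lower hedgehog, replication and mitosis genes below was not tested. Precursor identity was higher for 20 of 24 genes, 20 of them tested, with C1ql1 among them (0.96 ± 0.28, limma adjusted p = 0.0297). Of the hedgehog list 5 of 9 tested were lower, Gli1 among them (-1.92 ± 0.50, limma adjusted p = 0.0153), and 1 was higher, Ccnd1 (0.61 ± 0.16, limma adjusted p = 0.0175). Replication had 7 of 21 tested genes lower and mitosis 3 of 24. With OPC-like cells limited to the 67 of tumours 2 to 4 that also met the rule at 4900 UMIs, 526 of 6465 genes passed (8.14%), 425 higher (6.57%) and 101 lower (1.56%). Of these, 475 were among the 558 (85.1% of the 558 and 90.3% of the 526), and precursor identity again had 19 higher genes.

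The second comparison set OPC-like cells against astrocyte-like cells, which had at least 3 of Aqp4, Clu, Igfbp2 and Timp4, a higher mean of those than of the precursor genes, and no Ptprc. They were 17, 16, 39 and 17 cells in tumours 1 to 4. Their 6 granule gate genes summed to 1392, 1514, 2092 and 867 CPM. OPC-like cells had 1400, 533, 1409 and 984 CPM and granule lineage-like cells 1465, 2130, 2353 and 1520 CPM. The 24 mitosis genes summed to 3101, 4212, 2930 and 3077 CPM in astrocyte-like cells, against 2582, 1136, 2692 and 2564 CPM in OPC-like cells. The astrocyte-like class thus held granule and mitosis transcripts as well, and their source was not tested. With all 4 tumours 22 of 6326 genes passed (0.348%), 4 higher in OPC-like cells (0.0632%) and 18 lower (0.285%). Without tumour 1, 208 of 6456 passed (3.22%), 171 higher (2.65%) and 37 lower (0.573%), and all 22 were among the 208. The mean of the deposited log2 values gave 67 higher and 43 lower with all 4 tumours, and 270 higher and 425 lower in tumours 2 to 4. The OPC-like cells are those of the first comparison, so both share those samples.

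Sox10 was the 1 precursor identity gene that passed with all 4 tumours. It was at 0, 4.85, 2.07 and 0 CPM in astrocyte-like cells, below the OPC-like level in each tumour, with a difference of 3.10 ± 0.44 (4 tumours, limma adjusted p = 0.0248). Mmp15, a membrane-bound metalloproteinase, was also higher (2.24 ± 0.31, limma adjusted p = 0.0246), as was Tmem245, a membrane protein (1.43 ± 0.21, limma adjusted p = 0.0267). Neu4 and Gpr17 had no UMI in any astrocyte-like cell. In tumours 2 to 4, 14 of the 24 precursor identity genes were higher and none lower, 20 of them tested, with a median of 2.32 against 0.04 over all genes. Pdgfra was at 69.7, 43.7, 72.6 and 39.1 CPM in astrocyte-like cells. OPC-like cells passed as higher in tumours 2 to 4 (2.62 ± 0.23, limma adjusted p = 0.000473) and not with all 4 (2.00 ± 0.40, limma adjusted p = 0.0946). Olig2, at 63.7, 53.4, 33.2 and 107 CPM in astrocyte-like cells, did not pass in either fit (limma adjusted p = 0.0728 in tumours 2 to 4 and 0.288 with all 4).

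Astrocyte genes made up much of the lower side of this comparison. Of 20 listed, 15 were tested with all 4 tumours, and 7 were lower and none higher. The astrocyte-like cells were chosen for astrocyte genes, so this direction is partly set by the choice. Slc1a3 (chromosome 15, 8634124 to 8710764), the glutamate transporter GLAST, was at 122, 227, 153 and 198 CPM in OPC-like cells and at 479, 747, 668 and 775 CPM in astrocyte-like cells. The ranges did not overlap, and the difference was -1.88 ± 0.13 (4 tumours, limma adjusted p = 0.00057). It passed in all 20 settings fitted with at least 3 tumours, with limma adjusted p from 3.52e-08 to 0.0399. Gfap, the intermediate filament of astrocytes, was at 26.3, 0, 41.4 and 117 CPM against 80, 165, 265 and 572 CPM (-2.51 ± 0.38, limma adjusted p = 0.0311). Id3, an inhibitor of basic helix-loop-helix factors, was at 26.3, 0, 11.3 and 7.39 CPM against 94.9, 194, 99.5 and 124 CPM (-2.80 ± 0.40, limma adjusted p = 0.0248). Both were lower in each tumour, as were Sparc, a matricellular protein (-2.62 ± 0.34), Mlc1, a membrane protein of astrocyte end feet (-2.53 ± 0.27), and Apoe, the lipid carrier (-1.75 ± 0.20), with limma adjusted p from 0.00754 to 0.0242.

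Other lists differed between OPC-like and astrocyte-like cells by fewer genes. In tumours 2 to 4, 5 of 26 matrix genes were higher (Cspg4, Bcan, Gpc5, Sulf2 and Cntn1) and Sparc was lower, with 18 tested. Cntn1 was at 7.41, 4.85, 33.2 and 32 CPM in astrocyte-like cells (3.22 ± 0.46, limma adjusted p = 0.00645). Channels had 3 of 28 genes higher (Gria3, Cacng4 and Kcnip3) and growth factor genes 2 of 31 (Pdgfra and Ntrk2). Committed precursors had 3 of 12 higher (Gpr17, Bcas1 and Sirt2) and myelin 3 of 16, Cnp and Gjc3 among them, with Trf, the transferrin gene, lower. None of 23 replication, 24 mitosis and 15 granule lineage genes tested passed in tumours 2 to 4, while the mean of the deposited log2 values called 11 mitosis, 3 replication and 3 granule lineage genes lower. On that scale 9 matrix, 6 channel and 4 growth factor genes were higher. Against granule lineage-like cells 5 astrocyte genes had been higher in OPC-like cells, among them Slc1a2, Slc1a3, Aldoc and Sparcl1. The Slc1a3 level of OPC-like cells thus lay between those of the other classes, since granule lineage-like cells had at most 89.2 CPM in any tumour.

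The OPC-like cells with few granule genes differed from astrocyte-like cells by more genes. With those 38 cells, 1238 of 6654 genes passed (18.6%), 699 higher (10.5%) and 539 lower (8.1%). The astrocyte-like cells were not split by granule genes. Their 6 granule gate genes summed to 1514, 2092 and 867 CPM in tumours 2 to 4, against 82.3, 181 and 252 CPM in the 38 cells. Lower granule genes follow from this unequal split in part, and its part in lower mitosis genes was not tested. Precursor identity had 19 of 20 tested genes higher, Olig2 among them (3.05 ± 0.31, limma adjusted p = 5.04e-09), and mitosis had 14 of 24 lower. The astrocyte list had 8 genes lower and 2 higher, S100b among them. Gfap no longer passed (-2.17 ± 1.01, limma adjusted p = 0.295). With the 67 cells that met the rule at one depth in tumours 2 to 4, 239 of 6523 genes passed (3.66%), 206 higher (3.16%) and 33 lower (0.506%), with 18 of 20 precursor identity genes higher.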

How the data were processed

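The authors deposited 1 table of log2 values per tumour, and Cell Ranger, Seurat and mm10 are named in the submitters' processing notes, without versions. These log2 values, as the authors deposited them, were log2(UMI / size factor + 1), read from the values themselves, and gave back UMIs that were whole for 100% of values within 1e-06. Genes in all 4 tables numbered 13149. UMIs were summed per tumour and class of at least 10 cells, and log2(CPM + 10) of genes with a mean of at least 20 CPM was tested with limma 3.58.1 in R 4.3.3 (trend, robust, Benjamini-Hochberg over all genes tested). Tumour was the block, since both classes come from the same tumour. Named genes are the 15 largest higher and 10 largest lower past 0.05, in 1 direction in every tumour and with at least 50 CPM in the higher class, and genes of the lists. Members and lists were chosen with earlier results of these data known. In simulated data of the 4-tumour granule comparison (6261 genes) 19% of genes changed 2-fold and 89% of those changed 4-fold were recovered, with 8 false calls. In that of the astrocyte comparison (6326 genes) 12% and 79% were, with 3 false calls. The simulation used a fixed dispersion and the same fold in every tumour. It therefore does not show recovery where tumours differ, and it was not run for tumours 2 to 4 alone. Doublets were scored with Scrublet in scanpy 1.11.5 and not removed. Alternatives covered scaling, filter, pseudocount, block, depth, gates and each tumour left out. Gene positions are from GRCm38, and promoter sequences were not used here. Some genes are not reported here.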

Additional observations from a re-analysis of the deposited data

Results flagged for a closer look

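Of 50 values tested over the 4 tumours, 5 had 1 tumour far from the others, and chance gives about 1 in 20. The median depth of OPC-like cells in tumour 1 was 69295 UMIs, against 5523 to 13266.5 in the other tumours. The median depth of astrocyte-like cells in tumour 1 was 33309 UMIs, against 9340 to 13149. In OPC-like cells H2-D1 was at 918 CPM in tumour 2, against 75.3 to 185 CPM elsewhere. Rrm2 was at 199.7 CPM in tumour 3, against 73.9 to 88.9 CPM, and Tubb3 was at 542 CPM in tumour 3, against 326 to 346 CPM.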

How the results depend on the processing

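The count of genes that differed from granule lineage-like cells rested on the cells taken from tumour 1. It was 0 with all 4 tumours and 0 to 558 with 1 tumour left out: 558 without tumour 1, 1 without tumour 2 and 0 without tumour 3 or 4. It was 333 by the mean of the deposited log2 values, 52 with no filter, 132 with thinned cells, 607 with at least 5 of 6 rule genes, 1356 without members holding 3 or more granule genes, and 526 with members that pass the rule at one depth. The last 3 were fitted on tumours 2 to 4, since tumour 1 had under 10 such cells, so they compare with the 558. The following were chosen after seeing the data, as was the 526. In tumours 2 to 4 it was 376 against a granule class lacking only Ptprc, 1006 by the mean log2 values and 524 thinned. It was 888, 456 and 738 in tumours 2 and 3, 2 and 4, and 3 and 4, fits with 1 residual degree of freedom that rest almost wholly on variance shared across genes. Without the replicate block it stayed 0.

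Against astrocyte-like cells the count was 22 with all 4 tumours and 1 to 208 with 1 left out: 208 without tumour 1, 47 without tumour 2, 1 without tumour 3 and 3 without tumour 4. It was 61 with all 4 astrocyte gate genes, where the minimum per class was also lowered from 10 to 5 cells, 110 by mean log2 values, 6 with no replicate block, 1238 without members holding 3 or more granule genes, 13 and 313 with at least 3 and 5 of 6 rule genes, 9 with a pseudocount of 1 CPM and 36 thinned. The 1238 and 313, and the 239 below, were fitted on tumours 2 to 4 and compare with the 208. Added later were 239 for members at one depth, 695 (mean log2) and 173 (thinned) in tumours 2 to 4, and 457, 239 and 361 in the pairs of tumours 2 and 3, 2 and 4, and 3 and 4. The OPC-like share of tumour 1 was 3.88% with 3 of 6 rule genes and 0.125% on thinned cells. Top2a against granule lineage-like cells turned positive at 0.0077 with 3 of 6 rule genes and 0.42 in tumours 3 and 4, and ran from -0.53 to 0.28 with 1 tumour left out. Of 1245 values of 52 named genes in the granule comparison 3 changed sign, those of Top2a. In the astrocyte comparison 87 of 548 values of 25 genes lost their call, and none changed sign. The cause of these changes was not tested. The 116 cells, 13 to 47 per tumour, limit precision for genes with few UMIs.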
